A study of Mus musculus with 18 samples.

Results

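Most of the genes described here encode the machinery that sorts, bends and cuts the membranes of endosomes: the endosomal sorting complexes required for transport (ESCRT), the retromer, the tethers that join endosomes to lysosomes, and the sorting nexins. They were chosen by name, as the genes listed under a Chmp, Vps or Snx symbol that ends in a number. A single letter could follow the number, a to c for Chmp and a to d for Vps, so that Vps35l was left out. In the table of normalized counts 73 of the 27179 genes fit this rule. Of these, 10 are Chmp, 33 are Vps and 30 are Snx genes. All 73 averaged 10 or more normalized counts across the 18 libraries, the level asked for, and are reported.

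The study asked whether factors released by young mesenchymal stem cells (MSCs) make old MSCs more youthful, and sequenced RNA from 3 groups of 6 libraries each. All cells were primary MSCs from the bone marrow of C57BL6 mice, taken for RNA on day 7 of culture. Young MSCs came from mice aged 6 weeks and old MSCs from mice aged 18 to 24 months, and both were kept without treatment. Rejuvenated old MSCs were 100000 old cells that shared a well for these 7 days with young MSCs, held apart by a semi-permeable membrane that passes soluble factors and no cells. These 3 groups make up all the libraries. No library of old MSCs grown beside a second layer of old MSCs was among them. The presence of a second cell layer and the age of its donors cannot be told apart. The labels call the libraries of a group biological replicates but do not say whether they came from different animals. If they did not, the p values given here measure spread between cultures and not between donors.

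Endosomes receive proteins from the cell surface and the Golgi, and send each on to destruction or back to use. ESCRT proteins gather ubiquitin-tagged receptors and pinch them into vesicles inside the endosome, which are either digested in lysosomes or released as exosomes, while retromer and many sorting nexins pull other receptors out into recycling tubules. MSCs are known for the soluble factors and vesicles they release, and endosomal sorting is one of the routes by which such vesicles form.

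Levels are given as normalized counts, which are reads per gene after division by 1 size factor per library. Depth ran from 22936251 to 25648769 reads counted on genes for young libraries (median 24296356), for old libraries from 24965971 to 29559194 (median 27016557) and for rejuvenated old libraries from 26018046 to 29155223 (median 28604258.5). Of all genes, 14353 averaged 10 or more and were tested with limma on log2(normalized count + 1), with p adjusted over these genes. A gene is said to rise, fall or change where the adjusted p was under 0.05. A gene with at most 3 reads in each library of a group was taken to be at the floor, and floors and intervals cover counting error only. Where 2 groups are said not to overlap, every library of one lay above every library of the other.

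The study describes the mice as male, but the young libraries hold almost no reads from the Y chromosome. Reads of Ddx3y, Eif2s3y, Kdm5d and Uty, genes of the Y chromosome chosen after their values were seen, numbered 0 to 2 in each young library. In old libraries their medians were 1781, 2069, 878 and 624 normalized counts, and in rejuvenated old libraries 1719, 2039, 904 and 594. Xist, transcribed from an inactive X chromosome and chosen in the same way, had a median of 38.4 in young libraries, against 4.51 for old and 6.63 for rejuvenated old ones. Its level was low in all 3 groups, and young libraries held at most 40 reads of it each and 197 together. Donors of the other sex, loss of the Y chromosome and another source of cells cannot be told apart from these reads. As they set the whole young group apart, the age of the donors and this difference cannot be told apart in any comparison with young MSCs. Whole chromosomes differed as well, and the 4 named here were chosen after their values were seen. The median log2 difference between young and old MSCs over all tested genes was -0.69 on chromosome 1, 0.61 on chromosome 7, -0.46 on chromosome 12 and -0.75 on chromosome 16, against -0.02 over all genes. For the 13 mitochondrial genes it was -0.75, and in rejuvenated old against old MSCs these had a median of 0.27, against 0.01 over all genes. The part of RNA quality or cell state in these shifts was not tested.

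Markers of other cells also moved with the young group. The 14 macrophage and myeloid markers summed to 949 to 1068 in young (median 991), 14241 to 17971 in old (median 16130.4) and 14313 to 17475 in rejuvenated old (median 15072) libraries. Lysozyme gene Lyz2 was the most abundant of them, at a mean of 10154 ± 958 (SD, n = 6) for old, 9769 ± 1050.3 (SD, n = 6) for rejuvenated old and 173 ± 14.4 (SD, n = 6) for young MSCs. Ptprc, which encodes the leukocyte antigen CD45, and Adgre1, which encodes F4/80, had 0 reads in every young library, and 7 of the 14 markers were at the floor there. Of the 13 tested, 12 were lower and 1 was higher in young than in old MSCs, and 1 rose and 1 fell in rejuvenated old against old MSCs. Fewer cells of a type and less RNA per cell cannot be told apart in such bulk RNA.

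The other cell type lists were read in the same way. Of the 11 stromal markers, led by Cxcl12, 4 were higher and 7 lower in young than in old MSCs, and their sum ran from 156634 to 169901 in young (median 161433), 343952 to 363153 in old (median 349647) and 345815 to 388758 in rejuvenated old (median 371017) libraries. Cxcl12 alone carried this contrast: without it the other 10 summed to 147484 to 160668 in young (median 152349), 147857 to 162592 in old (median 153450.0) and 125915 to 136648 in rejuvenated old (median 130694) libraries, so that young and old overlapped and rejuvenated old lay lowest. Thy1, a defining MSC marker, was at the floor in old MSCs. The 6 adipocyte markers, led by Pparg, summed to 369.8 to 467 in young (median 383), 7375 to 7691 in old (median 7534) and 7466 to 9614 in rejuvenated old (median 8460.4), and the 6 osteoblast markers, led by Runx2, to 1434 to 1623 in young (median 1545), 2734 to 2820.0 in old (median 2768) and 2342 to 2649.9 in rejuvenated old (median 2496). Among 6 osteoclast markers, Ctsk was the most abundant, and the sum ran from 351 to 414 in young (median 382), 4297 to 4588 in old (median 4481) and 3677 to 4715 in rejuvenated old (median 4392). The 7 endothelial markers, led by Cd34, summed to 6921 to 7301 in young (median 7114), 37.6 to 66.0 in old (median 48.2) and 46.3 to 422 in rejuvenated old (median 58.7). In young libraries this sum is nearly that of Cd34 alone, as the other 6 summed to 104 to 140.4 in young (median 121), 18.3 to 40.4 in old (median 25.3) and 14.2 to 25.1 in rejuvenated old (median 21.6). The osteoclast sum likewise rests on Ctsk, since without it the other 5 summed to 218 to 304 in young and 23.7 to 43.1 in old libraries, the reverse order. Erythroid and neutrophil markers, led by Alas2 and S100a8, reached sums of at most 18.2 and 14.2 in any library. In co-culture 3 of the 11 stromal markers rose and 5 fell, and 4 of the 6 osteoblast markers fell. Of 4 adipocyte markers tested 2 rose and 1 fell, of 2 osteoclast markers 1 fell, and of 3 endothelial markers 1 rose and 1 fell. The stromal marker Ly6a, which encodes Sca-1 and was chosen after its values were seen, ran from 5629 to 7488 in old (median 5778), 11169 to 15050.5 in rejuvenated old (median 12518) and 19881 to 33910.0 in young (median 23277) libraries. No 2 groups overlapped in it, and its log2 fold change in co-culture was 1.07 (adjusted p = 1.67e-08). The part of these markers in the results was not tested.

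Rejuvenated old replicate 1 stood apart from the other libraries of its group in 2 markers. It held 401.6 normalized counts of Cd34 against 24.2 to 41.9 in the other 5, and 21.6 of Thy1 against 0 to 0.951. Both genes are high in young MSCs, at means of 7006 and 198. Over all genes the pair furthest from each other in this group was replicates 1 and 5. Counts of members are therefore also given without each of these 2 libraries.

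In rejuvenated old against old MSCs, most changes among the 73 genes were falls, and most were small. After co-culture 32 members fell, led by Snx31, Snx29, Vps13c, Vps18 and Vps11, while 8 rose by at most 0.19 on the log2 scale. These 40 are 54.8% of the members, where 41.6% of all genes tested changed. The falls took in 43.8% of the members against 20.6% of all genes, and the rises 11.0% against 21%. For 15 members (20.5%) the change came with groups that did not overlap, against 21.4% of all genes. Counts given below for each class are to be read beside these shares of all genes. The median log2 fold change was -0.07 over the members and 0.01 over all genes tested. Without rejuvenated old replicate 1 the count was 36 (7 higher, 29 lower), or 49.3% against 41.8% of all genes, and without replicate 5 it was 37 (8 higher, 29 lower), or 50.7% against 37.9%. In a fit without the young libraries it was 34 (7 higher, 27 lower), or 46.6% against 40.7%. Asking as well for a log2 change of 0.5 or more in either direction left 2 (2.74%), against 8.63% of all genes. The call of 9 members ended without at least 1 of the 18 libraries, and each is named below.

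In young against old MSCs the members differed widely, as did most genes. Of the 73, 30 were higher and 35 lower in young MSCs, together 89.0%, where 85.7% of all genes differed, 41.6% higher and 44.1% lower. The groups did not overlap for 58 of these members (79.5%), against 73.9% of all genes. Snx20, Snx31, Vps8, Snx18, Snx7, Chmp2b, Vps4b and Snx4 were each at less than 0.5 of their old level in young MSCs, and Chmp4c and Snx25 were at more than 2 times theirs. The median log2 fold change was -0.08, the same with Snx20, at 0 in young MSCs, set to its bound, and -0.02 over all genes. Between young and rejuvenated old MSCs 63 members differed (85.6% of all genes did), 34 higher in young MSCs, where 41.5% of all genes were, and 29 lower, where 44.1% were. The 3 comparisons share libraries, so their values are given side by side and were not related to each other. The plot of fold changes by role shows every member in the comparisons with old MSCs.

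**Figure D1:**
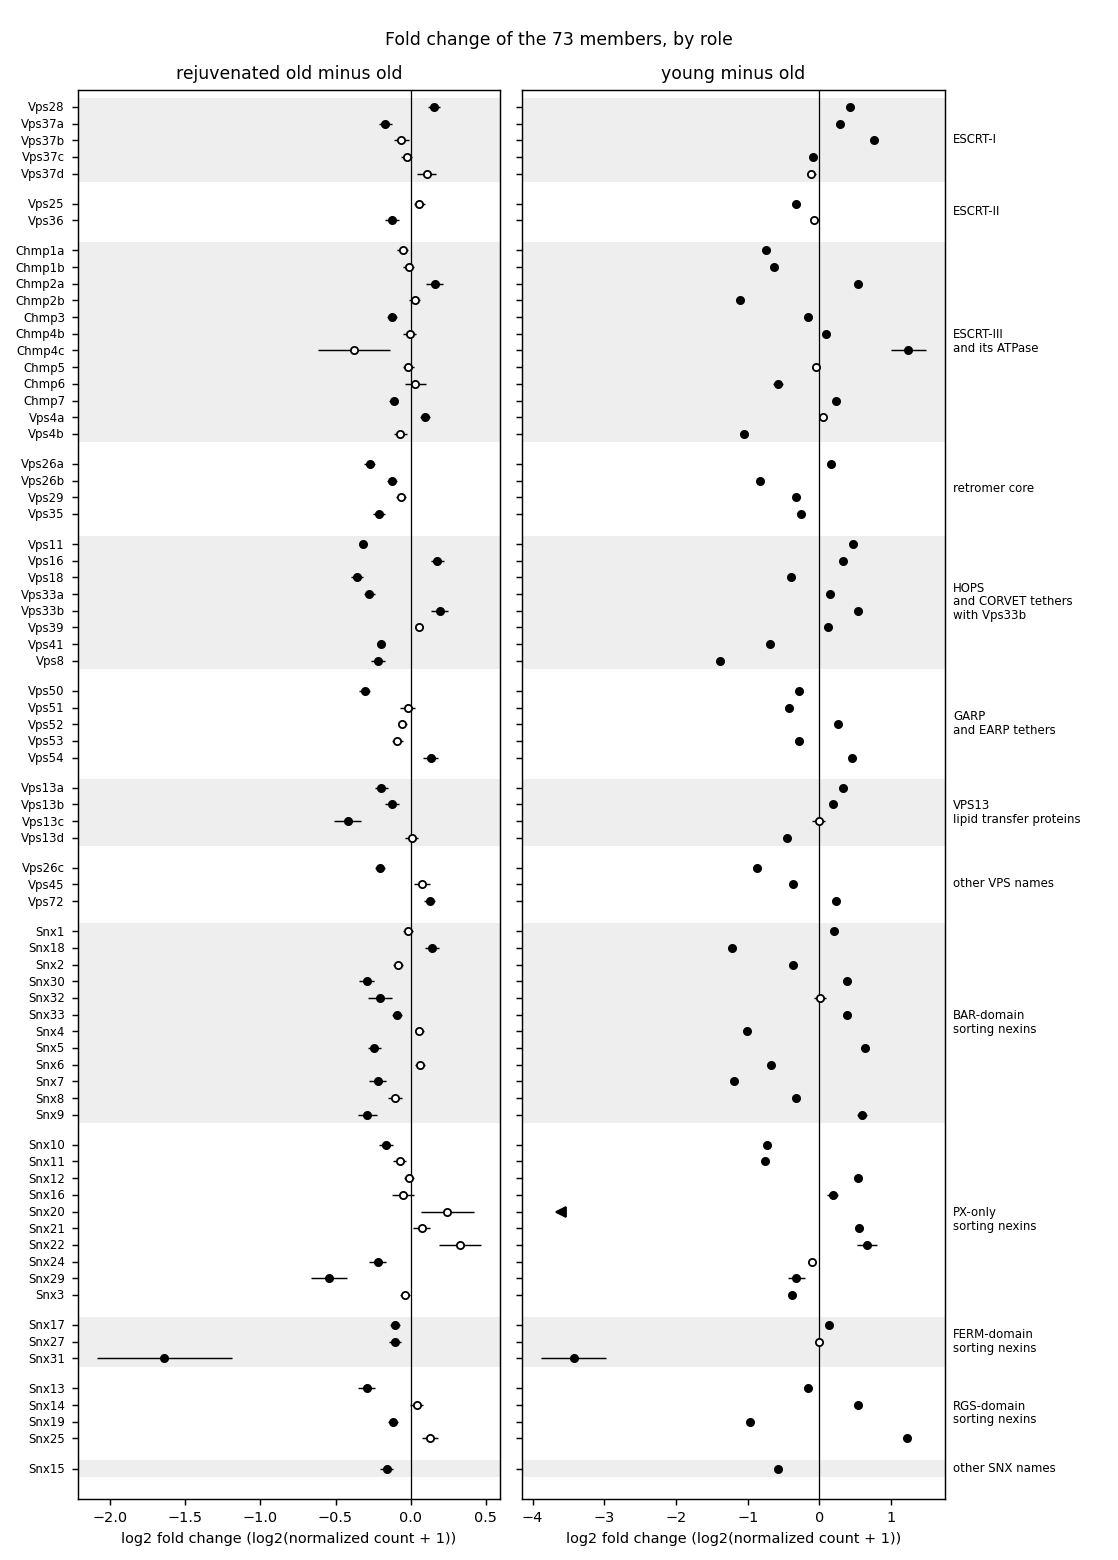
Log2 fold change with its standard error for each of the 73 members, grouped by role on the vertical axis, in rejuvenated old against old MSCs (left) and young against old MSCs (right). Filled points had an adjusted p under 0.05 and open points did not, and the triangle marks the bound for Snx20, which had no reads in young MSCs. On the left most filled points lie below 0, on the right they lie on both sides.

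Members that fell in co-culture were also longer than those that rose. The median exon length was 3555 bases for the 32 that fell and 2376 for the 8 that rose. Over all genes tested it was 4222 for those that fell and 2600 for those that rose, so the members followed the same difference. The part of gene length in the falls was not tested.

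The promoters of the members were searched for 1 motif. CACGTG is the core of the site read by the TFEB family, which drives genes of lysosomes and autophagy, and it reads the same on both strands. Whether this family or other proteins read it here was not tested. It was searched for in windows of the RefSeq annotation of GRCm38.p6 that reach from 250 bases before to 50 after each start. Of the 73 members, 49 were found in this table, and 7 of them (14.3%) held the motif: Snx5, Snx8, Snx18, Vps16, Vps26a, Vps33a and Vps50. The share was 11.5% among all genes tested and 8.09% among all genes in the table. In rejuvenated old MSCs Snx5, Vps26a, Vps33a and Vps50 fell, Snx18 and Vps16 rose, and Snx8 had a log2 fold change of -0.11 (adjusted p = 0.0777). The windows of Snx5, Vps26a, Vps33a and Vps50 are printed with the motif in capitals, since they are the holders among the 10 members with the largest falls without overlap. That list was taken from these same data. Of the same 10, Snx13, Snx29, Snx30 and Vps18 had windows without the motif, and Snx31 and Vps11 had none in the table. In Snx5 the motif lies 50 bases before the start, and in Vps50 it lies 25 after. The printed window of Vps26a has it 182 before and 32 after, and a second window, from another start and not printed, has it 175 and 151 before. These windows overlap, and the site 175 before the second start is the same as the site 32 after the first. Vps33a has it 28 and 12 before. A match of letters is a description and shows no binding.
Snx5, chr2:144270523-144270822, minus strand: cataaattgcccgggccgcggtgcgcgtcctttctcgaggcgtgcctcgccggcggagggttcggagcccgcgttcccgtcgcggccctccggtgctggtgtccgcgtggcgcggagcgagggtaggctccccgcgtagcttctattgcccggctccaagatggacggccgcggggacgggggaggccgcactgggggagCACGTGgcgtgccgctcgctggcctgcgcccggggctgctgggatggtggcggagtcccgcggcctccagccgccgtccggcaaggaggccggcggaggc
Vps26a, chr10:62486756-62487055, minus strand: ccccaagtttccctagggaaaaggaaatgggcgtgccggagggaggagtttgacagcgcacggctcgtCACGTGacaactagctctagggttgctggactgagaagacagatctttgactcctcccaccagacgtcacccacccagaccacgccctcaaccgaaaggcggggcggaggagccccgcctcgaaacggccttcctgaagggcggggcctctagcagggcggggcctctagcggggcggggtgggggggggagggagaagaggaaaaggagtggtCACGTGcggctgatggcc
Vps33a, chr5:123572966-123573265, minus strand: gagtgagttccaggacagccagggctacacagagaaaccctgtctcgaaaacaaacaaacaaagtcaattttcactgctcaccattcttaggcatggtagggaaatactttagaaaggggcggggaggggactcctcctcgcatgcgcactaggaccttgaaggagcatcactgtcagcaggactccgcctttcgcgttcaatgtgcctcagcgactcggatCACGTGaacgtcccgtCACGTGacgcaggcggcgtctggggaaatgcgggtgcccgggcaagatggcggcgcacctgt
Vps50, chr6:3498143-3498442, plus strand: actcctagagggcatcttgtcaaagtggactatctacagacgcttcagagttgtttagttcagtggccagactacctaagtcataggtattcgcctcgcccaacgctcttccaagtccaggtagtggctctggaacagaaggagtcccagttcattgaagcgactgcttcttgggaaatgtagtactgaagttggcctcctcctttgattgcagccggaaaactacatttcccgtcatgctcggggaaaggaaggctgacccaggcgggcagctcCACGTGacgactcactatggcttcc

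ESCRT-I and ESCRT-II hold ubiquitin-tagged cargo and start the bud. Of 5 ESCRT-I members, Vps28 rose and Vps37a fell, and of 2 ESCRT-II members Vps36 fell. Vps28 (gene number 66914, chromosome 15 from 76622086 to 76626084), a subunit of every ESCRT-I complex, had the highest level of its class per kilobase of exon, at 2580.2 normalized counts per kilobase in old MSCs. Its normalized count ran from 2541 to 2747 in old (median 2574), 2699 to 3308 in rejuvenated old (median 2874) and 3344 to 3586 in young (median 3506) libraries. The young libraries lay above all others, while those of rejuvenated old and old MSCs overlapped. Against old MSCs this is a log2 fold change of 0.16 (SE 0.04, adjusted p = 0.00283) for rejuvenated old and 0.42 (adjusted p = 1.06e-09) for young MSCs. With the median of chromosome 15 subtracted, the latter was 0.22. The 4 Vps37 genes encode alternative subunits of the same complex and went different ways. Vps37a fell by 0.17 (adjusted p = 0.00268) on the log2 scale in co-culture and was higher in young than in old MSCs by 0.29. Vps37b, at means of 985 ± 59.5 (SD, n = 6) in young and 583 ± 28.7 (SD, n = 6) in old MSCs, was higher in young by 0.75 (adjusted p = 1.94e-12). Vps37c was lower in young MSCs by 0.08 (adjusted p = 0.0360), a call that ended when any 1 of 7 libraries was left out (young replicates 3, 4 and 5 and old replicates 3 to 6, -0.08 to -0.07). Vps37d had -0.11 (adjusted p = 0.0974).

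The sums that follow hold the members alone, without Tsg101, Mvb12a, Mvb12b and Ubap1 of ESCRT-I and Snf8 of ESCRT-II, whose names do not match the rule. The summed count of the 5 ESCRT-I members ran from 5724 to 5985 in old (median 5878), 5892 to 6390.5 in rejuvenated old (median 5964) and 6979.8 to 7438 in young (median 7321) libraries, and was 24.5% higher in young than in old MSCs without overlap. The sum of the 2 ESCRT-II members went the other way, with 3426 ± 89.3 (SD, n = 6) in young and 4086 ± 83.0 (SD, n = 6) in old MSCs. These groups did not overlap either. Both directions held under each of the 3 other scalings tried. Vps25 (gene number 28084, chromosome 11 from 101252326 to 101259551), the ESCRT-II subunit that recruits ESCRT-III, was the most abundant of its class, at 1829 per kilobase in old MSCs. It ran from 2849 to 3154 in old (median 3017), 2923 to 3536 in rejuvenated old (median 3049.7) and 2293 to 2486 in young (median 2411) libraries. Young libraries lay below all others, and the other groups overlapped. On the log2 scale young MSCs stood at -0.32 (SE 0.04, adjusted p = 6.72e-08) and rejuvenated old MSCs at 0.06 (adjusted p = 0.241) against old ones. Vps36, which binds ubiquitin and lipid, fell by 0.12 (adjusted p = 0.0320) in co-culture. This call ended without any 1 of old replicates 1, 2 and 3 and rejuvenated old replicates 1, 4 and 6 (-0.12 to -0.09).

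ESCRT-III proteins, encoded by the Chmp genes, assemble into the filaments that cut the neck of a bud, and the ATPases Vps4a and Vps4b take the filaments apart. Of 12 members, 2 rose and 2 fell in co-culture, while 4 were higher and 6 lower in young than in old MSCs. Chmp4b (gene number 75608, chromosome 2 from 154657026 to 154694783), the main filament subunit, was the most abundant gene of all 73 per kilobase of exon, at 5218 in old MSCs, and gave a median of 25.7% of the summed count of its class. It ran from 7929 to 9266 in old (median 8330.5), 7699.6 to 9023 in rejuvenated old (median 8482) and 8399 to 9234 in young (median 9095) libraries. All 3 groups overlapped. In log2 terms that is -0.01 (adjusted p = 0.923) for rejuvenated old over old MSCs and 0.09 (adjusted p = 0.0480) for young over old MSCs. The latter call ended when any 1 of 11 of the 18 libraries was left out (0.07 to 0.10).

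Chmp2b (gene number 68942, chromosome 16 from 65539128 to 65562762), a late subunit that helps recruit the ATPase, ran from 1156 to 1348 in young (median 1263), 2569 to 2867 in old (median 2760.2) and 2695 to 2944 in rejuvenated old (median 2794) libraries. Every young library lay far below every other library, and old and rejuvenated old libraries overlapped. With old MSCs as the reference, the log2 fold change was -1.11 (SE 0.04, adjusted p = 3.62e-18) for young MSCs and 0.03 (adjusted p = 0.604) for rejuvenated old MSCs. Vps4b (gene number 20479, chromosome 1 from 106770788 to 106796725) showed the same pattern, with 994 to 1157 in young (median 1065), 2039.7 to 2357 in old (median 2176) and 1950.1 to 2228 in rejuvenated old (median 2098) libraries. Again the young libraries lay below all others. Young MSCs had a log2 fold change of -1.05 (SE 0.04, adjusted p = 1.74e-16) over old ones, and rejuvenated old MSCs one of -0.07 (adjusted p = 0.210). Both genes lie on chromosomes whose genes were lower in young MSCs as a whole, and with the median of the chromosome subtracted they stayed lower by 0.37 and 0.36.

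Their paralogues were read beside them. Chmp2a was higher in young than in old MSCs, by 0.54 (adjusted p = 3.98e-09), although with the median of chromosome 7 subtracted the value was -0.07. The ratio of Chmp2a to Chmp2b was 0.836 ± 0.0395 (SD, n = 6) for old, 0.921 ± 0.104 (SD, n = 6) for rejuvenated old and 2.63 ± 0.137 (SD, n = 6) for young MSCs. Vps4a had a log2 fold change of 0.05 (adjusted p = 0.177) in young against old MSCs, and of -0.10 with the median of chromosome 8 subtracted. The ratio of Vps4a to Vps4b was 1.99 ± 0.166 (SD, n = 6) in young and 0.928 ± 0.0541 (SD, n = 6) in old MSCs. For both ratios the young libraries lay above all 12 others. The shifts of whole chromosomes enter both, and with them subtracted the values of these 4 genes were all negative. In co-culture Chmp2a rose by 0.16 (adjusted p = 0.0236) and Vps4a by 0.10 (adjusted p = 0.0208). The first call ended without rejuvenated old replicate 5 (0.11) and the second without rejuvenated old replicate 4 (0.08). Chmp1a and Chmp1b were both lower in young MSCs, by 0.75 and 0.63, and their ratio overlapped between all 3 groups.

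Chmp4c (gene number 66371, chromosome 3 from 10366973 to 10391005), a Chmp4 paralogue that delays the final cut of cell division, was the least abundant ESCRT-III gene. It ran from 11.95 to 21.3 in young (median 20.2), 4.81 to 11.8 in old (median 7.48) and 3.77 to 6.66 in rejuvenated old (median 5.50) libraries. The lowest young library, replicate 2 at 11.95, still lay above the highest old one. Against old MSCs this is a log2 fold change of 1.24 (SE 0.24, adjusted p = 4.83e-05) for young and -0.38 (adjusted p = 0.222) for rejuvenated old MSCs. Of the other members, Chmp3, which assembles together with the Chmp2 proteins, fell by 0.12 (adjusted p = 0.00480) in co-culture, and Chmp7, known for sealing the nuclear envelope, by 0.11 (adjusted p = 0.00683). Chmp6 was lower in young than in old MSCs by 0.58, and Chmp5 did not pass the test in any comparison. The summed count of the class was 33622 ± 567 (SD, n = 6) for old, 33232 ± 1213 (SD, n = 6) for rejuvenated old and 29894 ± 783 (SD, n = 6) for young MSCs. The young libraries lay below all old ones, with a mean change of -11.1% (-8.94% to -6.38% under the 3 other scalings), and old and rejuvenated old libraries overlapped.

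Of 18 ESCRT partners without a matching name, 2 rose and 7 fell in co-culture, and 8 were higher and 5 lower in young than in old MSCs. Mvb12a, an ESCRT-I subunit, rose by 0.28 (adjusted p = 2.20e-05) in co-culture and was higher in young MSCs by 0.68. Stambp, an enzyme that removes ubiquitin from cargo, fell by 0.23 (adjusted p = 2.37e-04). Tollip, an adaptor that binds ubiquitin, fell by 0.22 (adjusted p = 5.77e-04) in co-culture but was higher in young MSCs by 0.70. Stam2, of the complex that first binds cargo, was lower in young MSCs by 0.68 (adjusted p = 4.31e-13).

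Retromer carries receptors from endosomes back to the Golgi or the cell surface. Of its 4 core genes, Vps26a, Vps26b and Vps35 fell in co-culture, and Vps29 had -0.06 (adjusted p = 0.141). Vps35 (gene number 65114, chromosome 8 from 85260385 to 85299517), the backbone of the complex, had the highest level of the class, at 1885 per kilobase in old MSCs. It ran from 6137 to 6975 in old (median 6606), 5012 to 6112 in rejuvenated old (median 5772) and 5321 to 5770.1 in young (median 5423) libraries. Every old library lay above every other library. On the log2 scale rejuvenated old MSCs stood at -0.21 (SE 0.04, adjusted p = 2.96e-04) and young MSCs at -0.26 (adjusted p = 4.62e-06) against old ones.

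Vps26a (gene number 30930, chromosome 10 from 62454843 to 62486805), one of a pair of alternative subunits that bind cargo adaptors, ran from 3329 to 3813 in old (median 3479.6), 2729.6 to 3066 in rejuvenated old (median 2952) and 3790.1 to 4114 in young (median 3928) libraries. Rejuvenated old libraries lay below all others, and young and old libraries overlapped in part. In log2 terms that is -0.27 (SE 0.04, adjusted p = 2.05e-06) for rejuvenated old over old MSCs and 0.16 (adjusted p = 1.90e-04) for young over old MSCs. Vps26b fell less, by 0.12 (adjusted p = 0.00535), and was lower in young MSCs by 0.83. The ratio of Vps26a to Vps26b was 1.023 ± 0.0520 (SD, n = 6) for old, 0.921 ± 0.0338 (SD, n = 6) for rejuvenated old and 2.04 ± 0.0782 (SD, n = 6) for young MSCs. No 2 groups overlapped in this ratio. The summed retromer count ran from 15140.1 to 16509 in old (median 15784), 12953 to 14431 in rejuvenated old (median 14147) and 12884 to 13673 in young (median 13019.5) libraries. Old libraries lay above all others, and the mean change from them was -11.9% in rejuvenated old and -16.7% in young MSCs. Both differences kept their direction and the groups stayed apart under the 3 other scalings.

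Of 23 partners of retromer, among them the WASH complex that lays actin on endosomes and the retriever and CCC complexes of a parallel recycling route, 3 rose and 10 fell in co-culture. The WASH genes Washc5 and Washc2 fell by 0.37 (adjusted p = 5.32e-07) and 0.32 (adjusted p = 1.68e-08), and Commd1 of the CCC complex rose by 0.32 (adjusted p = 8.00e-05). In young against old MSCs 7 of the 23 were higher and 9 lower. Commd3 had a log2 fold change of -1.20, Commd10 of -0.77 and Ankrd50 of -0.73, each lower in young MSCs. Vps26c, a retriever subunit whose name matches the rule, fell by 0.20 (adjusted p = 1.07e-04) in co-culture and was lower in young MSCs by 0.86, or by 0.12 with the median of chromosome 16 subtracted. The groups did not overlap in either comparison before this step.

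Receptors and transporters that these complexes are known to sort were read beside them. Of 14 tested, 2 rose and 8 fell in co-culture. Igf2r, the receptor that brings enzymes to lysosomes, fell by 0.66 (adjusted p = 2.71e-08), from 5039 ± 196 (SD, n = 6) to 3213 ± 419 (SD, n = 6) normalized counts. Wls, the carrier of Wnt proteins, fell by 0.43 (adjusted p = 1.06e-07). In young against old MSCs 5 were higher and 8 lower. Sorl1, a sorting receptor, had a mean of 3.13 ± 1.57 (SD, n = 6) in young and 149 ± 19.2 (SD, n = 6) in old MSCs, and its relative Sorcs2 had 1598 ± 107 (SD, n = 6) and 90.1 ± 12.5 (SD, n = 6). The fitted log2 fold changes, of which the first depends on the count added before logs, were -5.27 (adjusted p = 6.60e-17) and 4.14 (adjusted p = 2.71e-18). The iron transporter Slc11a2 was higher in young MSCs by 0.88.

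The tethers HOPS and CORVET, which dock endosomes on lysosomes and on each other, changed in 6 of 7 genes in co-culture. Of all genes tested 41.6% changed, and 21.4% changed without overlap. Vps8, Vps11, Vps18, Vps33a and Vps41 fell with no overlap between the groups, while Vps16 rose. Vps33b, of a separate complex but counted with them in the class, rose as well. Vps18 (gene number 228545, chromosome 2 from 119288742 to 119298453) encodes a core subunit of both tethers. It ran from 1993 to 2346 in old (median 2194), 1636 to 1819.9 in rejuvenated old (median 1702) and 1575 to 1772 in young (median 1644) libraries. Every old library lay above every other one, and rejuvenated old and young libraries overlapped. The mean went from 2188 ± 121 (SD, n = 6) in old to 1706 ± 70.7 (SD, n = 6) in rejuvenated old MSCs, a log2 fold change of -0.36 (SE 0.04, adjusted p = 2.14e-07), and was -0.40 (adjusted p = 2.80e-09) in young against old MSCs.

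Vps11 (gene number 71732, chromosome 9 from 44347749 to 44361673), another core subunit, ran from 2102 to 2294 in old (median 2200.1), 1685 to 1841 in rejuvenated old (median 1784) and 3002 to 3108 in young (median 3047) libraries. No 2 groups overlapped, with rejuvenated old libraries lowest and young libraries highest. With old MSCs as the reference, the log2 fold change was -0.32 (SE 0.03, adjusted p = 6.57e-09) for rejuvenated old MSCs and 0.46 (adjusted p = 3.13e-13) for young MSCs. Vps33a (gene number 77573, chromosome 5 from 123528757 to 123573043), the core subunit that binds the fusion proteins, ran from 1480.2 to 1587 in old (median 1527), 1175 to 1364 in rejuvenated old (median 1259) and 1594 to 1749.9 in young (median 1721) libraries. Here too no 2 groups overlapped, and the groups had the same order. Rejuvenated old MSCs had a log2 fold change of -0.28 (SE 0.04, adjusted p = 2.05e-06) over old ones, and young MSCs one of 0.15 (adjusted p = 4.44e-04).

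Vps41 (gene number 218035, chromosome 13 from 18717292 to 18866811), found in HOPS alone, was the most abundant of the class, at 1641 per kilobase in old MSCs. It ran from 5148 to 5321 in old (median 5263), 4287 to 4786 in rejuvenated old (median 4601) and 3146 to 3335 in young (median 3255) libraries. The groups did not overlap, with rejuvenated old libraries between the others. Against old MSCs this is a log2 fold change of -0.20 (SE 0.03, adjusted p = 3.36e-06) for rejuvenated old and -0.69 (adjusted p = 7.84e-17) for young MSCs. With the median of chromosome 13 subtracted, the latter was -0.39. Vps8 (gene number 209018, chromosome 16 from 21423118 to 21644681), found in CORVET alone, ran from 950.1 to 1055 in old (median 980.1), 756 to 901 in rejuvenated old (median 866) and 349 to 403 in young (median 381) libraries and was likewise ordered with no overlap. On the log2 scale rejuvenated old MSCs stood at -0.22 (SE 0.05, adjusted p = 7.87e-04) and young MSCs at -1.39 (SE 0.05, adjusted p = 6.91e-18) against old ones. Vps8 lies on chromosome 16, and with the median of that chromosome subtracted it was lower in young MSCs by 0.64.

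Vps16, the partner of Vps33a in both tethers, rose by 0.18 (adjusted p = 0.00255) in co-culture and was higher in young than in old MSCs by 0.33. Vps33b, which pairs with Vipas39, rose by 0.19 (adjusted p = 0.00730) and was higher in young MSCs by 0.53. With the median of chromosome 7 subtracted, the rises of Vps33b and Chmp2a in co-culture no longer passed the test, and the value of Vps33b in young against old MSCs was -0.08. The ratio of Vps33a to Vps33b was 5.25 ± 0.330 (SD, n = 6) in old, 3.80 ± 0.376 (SD, n = 6) in rejuvenated old and 4.03 ± 0.195 (SD, n = 6) in young MSCs. The old libraries were the highest in this ratio. The shift of chromosome 7 enters it where young MSCs are compared. With the medians of chromosomes 5 and 7 subtracted, Vps33a was 0.17 and Vps33b -0.08 in young against old MSCs, so the order of young and old in this ratio does not hold after that step. Vps39, found in HOPS alone, had 0.06 (adjusted p = 0.0947) in co-culture. The summed count of the 8 genes ran from 15574 to 16330.1 in old (median 15953), 13973 to 14718 in rejuvenated old (median 14217) and 14306 to 14668 in young (median 14585) libraries. The mean change from old MSCs was -10.4% in rejuvenated old and -8.78% in young MSCs. Under the 3 other scalings it was -11.4% to -10.1% and -6.59% to -3.95%, and every old library lay above every other library under all 4 scalings. The lower sum in young MSCs does not stand for most of the genes. Of the 8, 5 were higher and 3 lower in young than in old MSCs, with a median log2 fold change of 0.14. Among the lower ones is Vps41, which gave 21.4% to 33.6% of the sum across the libraries.

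**Figure D2:**
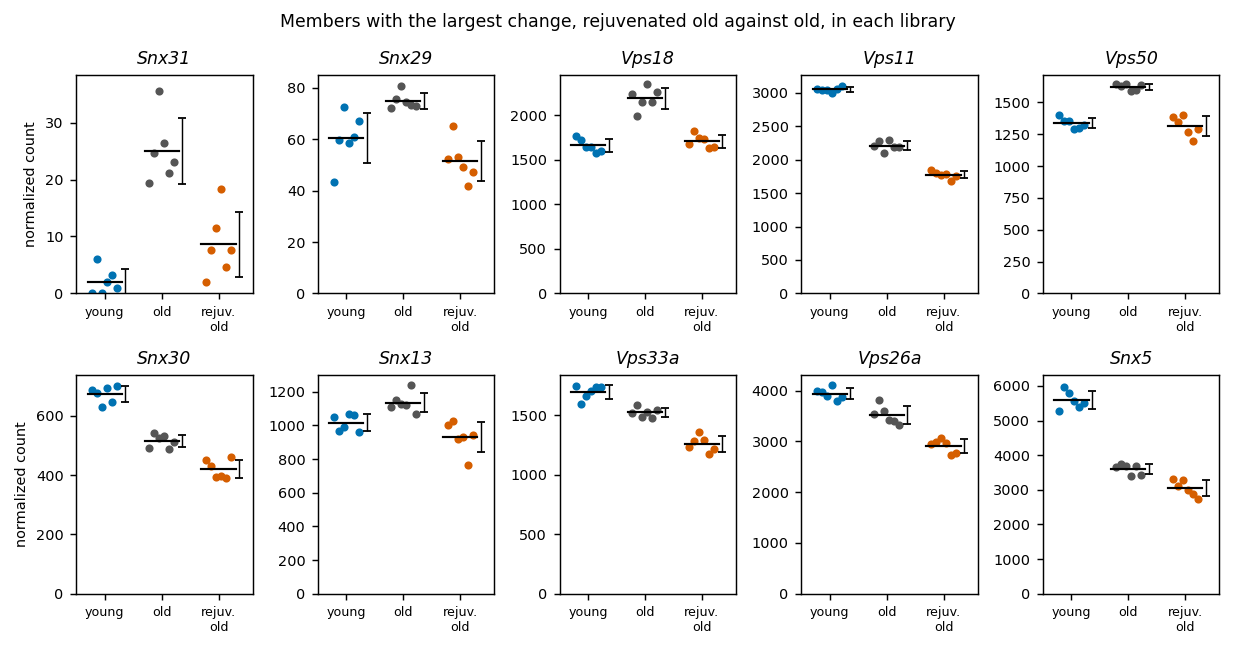
Normalized count in each library of the 10 members with the largest log2 fold change in rejuvenated old against old MSCs among those whose groups did not overlap. Points are libraries (6 per group), lines are means and bars are the SD, with the count axis starting at 0. All 10 are lower in rejuvenated old MSCs, and for Vps11, Snx30, Vps33a and Snx5 the young libraries lie above both other groups.

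GARP and EARP tether vesicles that return from endosomes, at the Golgi and at recycling endosomes. Of their 5 genes, Vps50 fell and Vps54 rose in co-culture, and 2 were higher and 3 lower in young than in old MSCs. Vps50 (gene number 73288, chromosome 6 from 3498393 to 3603531), which takes the place of Vps54 in EARP, ran from 1591 to 1644 in old (median 1633), 1198 to 1402 in rejuvenated old (median 1319) and 1295 to 1401 in young (median 1336) libraries. Old libraries lay above all others, and the other groups overlapped. In log2 terms that is -0.31 (SE 0.04, adjusted p = 5.51e-07) for rejuvenated old over old MSCs and -0.28 (adjusted p = 1.97e-07) for young over old MSCs. Vps54, found in GARP alone, rose by 0.13 (adjusted p = 0.0332), a call that ended without any 1 of old replicates 4 and 6 and rejuvenated old replicates 1 and 3 (0.11 to 0.12). It was higher in young MSCs by 0.45. Vps52 (gene number 224705, chromosome 17 from 33955779 to 33967038), a subunit of both, was the most abundant, at 733 per kilobase in old MSCs. It ran from 2307 to 2657 in old (median 2476), 2321 to 2482 in rejuvenated old (median 2354) and 2889.7 to 3060.0 in young (median 2948) libraries. Young libraries lay above all others, with a log2 fold change of 0.26 (SE 0.03, adjusted p = 1.34e-07) against old MSCs, and old and rejuvenated old libraries overlapped, with -0.05 (adjusted p = 0.186). With the median of chromosome 17 subtracted, the value of Vps52 in young against old MSCs was 0.03. Vps51 and Vps53, subunits of both as well, were lower in young MSCs by 0.43 and 0.29, and their log2 fold changes in co-culture were -0.02 (adjusted p = 0.777) and -0.09 (adjusted p = 0.0569).

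Of 21 tested partners of the tethers, which include the enzymes that make the lipid PI3P on endosomes, 1 rose and 9 fell in co-culture. Pikfyve, the kinase that converts PI3P, fell by 0.29 (adjusted p = 5.28e-05) and Becn1, of the complex that makes it, by 0.25 (adjusted p = 4.76e-05). Aktip, which links HOPS to motors, rose by 0.24 (adjusted p = 2.97e-05). In young against old MSCs 6 were higher and 13 lower. The fusion protein gene Stx6 was lower in young MSCs by 1.19, Pikfyve by 0.82 and the CORVET subunit Tgfbrap1 by 0.63.

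VPS13 proteins are bridges along which lipids pass between membranes. Of 4 genes, Vps13a, Vps13b and Vps13c fell in co-culture. Vps13c had the largest of these falls, from 567 ± 35.7 (SD, n = 6) to 429 ± 75.3 (SD, n = 6) normalized counts, a log2 fold change of -0.42 (SE 0.09, adjusted p = 7.66e-04), with groups that overlapped. Vps13b (gene number 666173, chromosome 15 from 35371118 to 35931229) had the highest level, 85.3 per kilobase in old MSCs. It ran from 1076 to 1289.9 in old (median 1172), 987 to 1157 in rejuvenated old (median 1091) and 1267 to 1398 in young (median 1346) libraries. Old libraries overlapped with both other groups, and young libraries lay above rejuvenated old ones. It fell by 0.13 (adjusted p = 0.0315) in co-culture, a call that ended without any 1 of old replicates 2, 3 and 5 and rejuvenated old replicates 3 and 5 (-0.12 to -0.10). Vps13a fell by 0.19 (adjusted p = 0.00122) and was higher in young than in old MSCs by 0.33. Vps13d was lower in young MSCs by 0.45, and had 0.01 (adjusted p = 0.925) in co-culture.

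Among the remaining Vps names, Vps72 (gene number 21427, chromosome 3 from 95111042 to 95123051) encodes a chromatin protein that deposits a histone variant and shares only its name with the sorting machinery. At 1088 per kilobase it was the highest of these 3 genes in old MSCs. It ran from 1552 to 1614 in old (median 1585), 1650.0 to 1884 in rejuvenated old (median 1691) and 1791 to 1978 in young (median 1863) libraries. Old libraries lay below all others, and the log2 fold change over them was 0.13 (SE 0.03, adjusted p = 0.00519) for rejuvenated old and 0.23 (adjusted p = 1.48e-06) for young MSCs. It was the one member that rose in co-culture with groups that did not overlap. Vps45, which binds the fusion proteins of endosomes, was lower in young MSCs by 0.37 (adjusted p = 1.12e-06) and had 0.08 (adjusted p = 0.273) in co-culture.

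Sorting nexins with a BAR domain bend membrane into tubules. Of 12, Snx18 rose and 6 fell in co-culture, and 5 were higher and 6 lower in young than in old MSCs. Snx5 (gene number 69178, chromosome 2 from 144250123 to 144270902), which binds the tail of the receptor Igf2r, had the highest mean level of the class over the 18 libraries, with 2128 normalized counts per kilobase in young and 1371 in old MSCs. It ran from 3399 to 3739 in old (median 3668), 2745 to 3304 in rejuvenated old (median 3047) and 5274 to 5975 in young (median 5535) libraries. Young libraries lay highest and rejuvenated old libraries lowest, with no overlap. With old MSCs as the reference, the log2 fold change was -0.24 (SE 0.04, adjusted p = 1.15e-04) for rejuvenated old MSCs and 0.63 (SE 0.04, adjusted p = 3.59e-12) for young MSCs. Its paralogue Snx6 was lower in young MSCs by 0.68, or by 0.22 with the median of chromosome 12 subtracted, and had 0.06 (adjusted p = 0.168) in co-culture. The ratio of Snx5 to Snx6 was 1.22 ± 0.0608 (SD, n = 6) for old, 0.991 ± 0.0486 (SD, n = 6) for rejuvenated old and 3.04 ± 0.133 (SD, n = 6) for young MSCs. No 2 groups overlapped in it, and the shift of chromosome 12 enters this ratio. Their partners Snx1 and Snx2 had -0.02 (adjusted p = 0.686) and -0.08 (adjusted p = 0.0666) in co-culture, and in young against old MSCs Snx1 was higher by 0.21 and Snx2 lower by 0.36. With the medians of chromosomes 9 and 18 subtracted, the latter values were 0.008 for Snx1 and -0.13 for Snx2.

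Snx4, Snx7 and Snx30 work together in recycling to the cell surface and in autophagy. Snx4 (gene number 69150, chromosome 16 from 33251456 to 33299562) ran from 1384 to 1552 in young (median 1484), 2895 to 3134 in old (median 2969) and 2992 to 3201 in rejuvenated old (median 3084) libraries. The young libraries were the lowest, and old and rejuvenated old libraries overlapped. Young MSCs had a log2 fold change of -1.01 (SE 0.03, adjusted p = 4.75e-19) over old ones, and rejuvenated old MSCs one of 0.06 (adjusted p = 0.137), and with the median of chromosome 16 subtracted the former was -0.26. Snx7 (gene number 76561, chromosome 3 from 117781497 to 117868936) ran from 723 to 795 in young (median 741), 1610.4 to 1914 in old (median 1695) and 1276 to 1620.3 in rejuvenated old (median 1524) libraries. Every young library lay below every other one, and old and rejuvenated old libraries overlapped. Young MSCs differed from old ones by -1.19 (SE 0.05, adjusted p = 1.87e-15), and co-culture gave a fall of 0.22 (adjusted p = 0.00262). Snx30 (gene number 209131, chromosome 4 from 59805131 to 59904740) was instead higher in young MSCs. It ran from 488 to 542 in old (median 518), 391 to 460.4 in rejuvenated old (median 415) and 631 to 701 in young (median 680.5) libraries, with young libraries highest, rejuvenated old libraries lowest and no overlap. Against old MSCs this is a log2 fold change of -0.29 (SE 0.05, adjusted p = 6.25e-05) for rejuvenated old and 0.38 (adjusted p = 2.07e-07) for young MSCs.

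Snx9, Snx18 and Snx33 act with dynamin in uptake at the cell surface. Snx18 (gene number 170625, chromosome 13 from 113592179 to 113618564) ran from 1133 to 1249 in young (median 1165), 2583 to 2931 in old (median 2706) and 2659 to 3262 in rejuvenated old (median 3075) libraries. Young libraries lay below all others, and old and rejuvenated old libraries overlapped. It was lower in young MSCs by 1.21 (SE 0.05, adjusted p = 3.82e-17) and rose by 0.14 (adjusted p = 0.0149) in co-culture. Snx9 did the reverse, higher by 0.59 (adjusted p = 1.10e-08) for young over old MSCs, while in co-culture it fell by 0.29 (adjusted p = 9.89e-04). The ratio of Snx9 to Snx18 was therefore 0.764 ± 0.0508 (SD, n = 6) for old, 0.566 ± 0.0268 (SD, n = 6) for rejuvenated old and 2.68 ± 0.193 (SD, n = 6) for young MSCs, and no 2 groups overlapped. The shifts of chromosomes 17 and 13 enter this ratio. With their medians subtracted, Snx9 was 0.37 and Snx18 -0.92 in young against old MSCs. Snx33 fell by 0.09 (adjusted p = 0.0362), and this call ended without any 1 of old replicates 1, 4 and 6 and rejuvenated old replicates 1, 2, 3 and 5 (-0.09 to -0.08). Snx32, a relative of Snx5, fell by 0.20 (adjusted p = 0.0492), and this call ended without any 1 of 14 of the 18 libraries (-0.21 to -0.16).

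**Figure D3:**
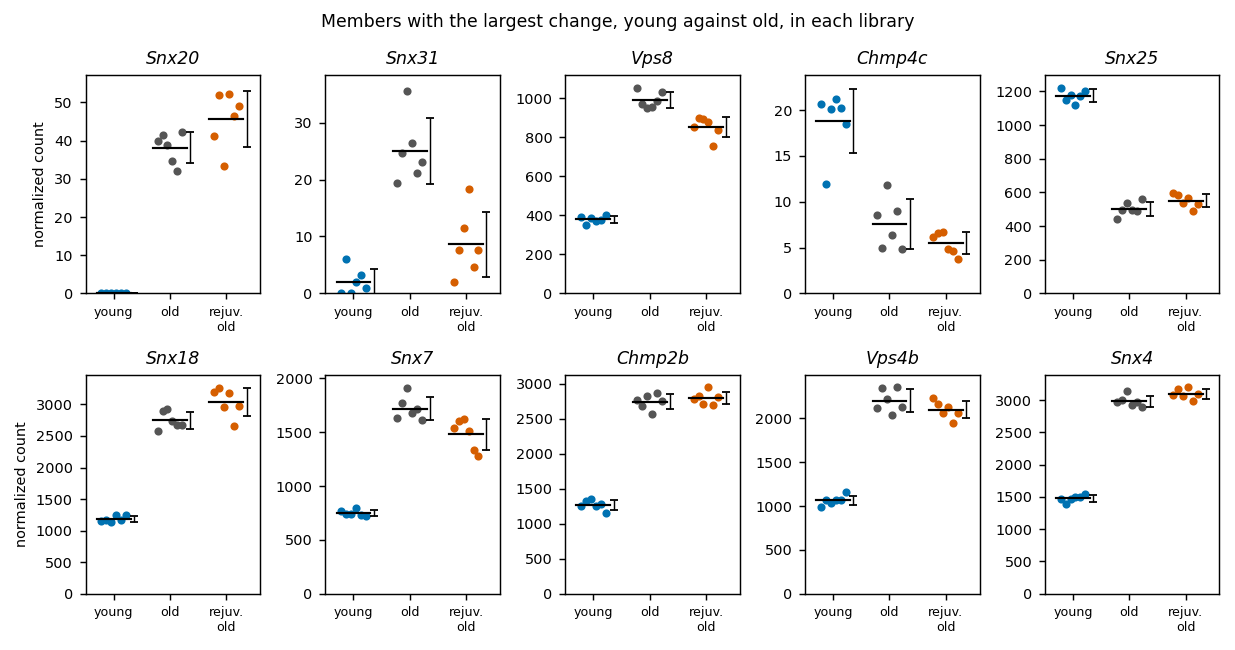
Normalized count in each library of the 10 members with the largest log2 fold change in young against old MSCs among those whose groups did not overlap. Points are libraries (6 per group), lines are means and bars are the SD, with the count axis starting at 0. Chmp4c and Snx25 are higher in young MSCs, the other 8 are lower, and Snx20 has no reads there.

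Of 10 sorting nexins with little beside the lipid-binding PX domain, Snx10, Snx24 and Snx29 fell in co-culture and 4 were higher and 5 lower in young than in old MSCs. Snx3 (gene number 54198, chromosome 10 from 42502054 to 42535369), which works with retromer to return Wls to the Golgi, had the highest level, 5204 per kilobase in old MSCs. It ran from 7091 to 7773 in old (median 7294), 6637 to 7718 in rejuvenated old (median 7102) and 5521 to 5877 in young (median 5569) libraries. The young libraries were the lowest, and old and rejuvenated old libraries overlapped. On the log2 scale young MSCs stood at -0.39 (SE 0.03, adjusted p = 2.68e-10) and rejuvenated old MSCs at -0.04 (adjusted p = 0.414) against old ones. With the median of chromosome 10 subtracted, the value of Snx3 for young MSCs was -0.19. Its paralogue Snx12 was higher in young MSCs by 0.54 (adjusted p = 3.37e-13), so that the ratio of Snx3 to Snx12 was 1.81 ± 0.0346 (SD, n = 6) in young and 3.44 ± 0.145 (SD, n = 6) in old MSCs, with no overlap. The shifts of chromosomes 10 and X enter this ratio, and with the median of the X chromosome subtracted Snx12 was higher by 0.39.

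Snx20 (gene number 71607, chromosome 8 from 88626561 to 88636133), which binds a selectin ligand of leukocytes, had 0 reads in each young library. It ran from 32.1 to 42.3 in old (median 39.3) and 33.3 to 52.1 in rejuvenated old (median 47.8) libraries, which overlapped. Set against the floor of 3 reads per library, its level in young MSCs was at least 12.1-fold lower than in old and at least 14.5-fold lower than in rejuvenated old MSCs. The leukocyte markers Ptprc and Adgre1 were at 0 in the same 6 libraries, and their part in this result was not tested. In co-culture Snx20 had 0.24 (adjusted p = 0.282). Snx29 (gene number 74478, chromosome 16 from 11322861 to 11759095) ran from 72.05 to 80.8 in old (median 73.9), 41.9 to 65.1 in rejuvenated old (median 50.9) and 43.5 to 72.6 in young (median 60.3) libraries. Rejuvenated old libraries lay below all old ones, and young libraries overlapped both. It fell by 0.54 (SE 0.12, adjusted p = 0.00106) in co-culture. In young against old MSCs it had -0.32 (adjusted p = 0.0182), a call that ended without young replicate 1 (-0.23), and with the median of chromosome 16 subtracted the value was 0.43. Snx10, which acts with the proton pump of lysosomes, fell by 0.16 (adjusted p = 0.00816) and was lower in young MSCs by 0.73. Snx24 fell by 0.22 (adjusted p = 0.00345). Snx11 was lower in young MSCs by 0.76, while Snx21 and Snx22 were higher by 0.55 and 0.67. Snx16 was higher by 0.18 (adjusted p = 0.0244), a call that ended without young replicate 5, old replicate 2 or old replicate 6 (0.15 to 0.16).

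Sorting nexins with a FERM domain bind the tails of receptors and return them to the surface, and all 3 fell in co-culture. Snx31 (gene number 66696, chromosome 15 from 36504062 to 36560129), the least abundant of them, ran from 19.4 to 35.5 in old (median 23.9), 2.06 to 18.3 in rejuvenated old (median 7.55) and 0 to 5.98 in young (median 1.53) libraries. Rejuvenated old libraries lay below all old ones and overlapped with young ones. The mean went from 25.0 ± 5.73 (SD, n = 6) in old to 8.597 ± 5.72 (SD, n = 6) in rejuvenated old MSCs, a log2 fold change of -1.64 (SE 0.45, adjusted p = 0.00551), the largest of any member in this comparison. Over all libraries the mean of Snx31 was 11.9, and in young MSCs it was 2.04. Snx31 thus reached the mean asked for only through the old libraries. Its entry to the tests against old MSCs depended on the differences tested. Young libraries held 12 reads in all against 150 in old ones, a ratio of 0.0841 after scaling (95% counting interval 0.0425 to 0.151). Young replicate 2 held 6 of the 12, and without it the ratio was 0.0510 (0.0184 to 0.114). The comparison of all 6 had a fitted log2 fold change of -3.43 (adjusted p = 2.60e-07) that depends on the count added before logs. Snx17 (gene number 266781, chromosome 5 from 31193262 to 31198900), which recycles integrins, was the most abundant of the class, at 1444 per kilobase in old MSCs. It ran from 2803 to 3111 in old (median 2906), 2528 to 2882 in rejuvenated old (median 2714) and 3062 to 3337 in young (median 3240.2) libraries. Old libraries overlapped with both other groups. It fell by 0.10 (adjusted p = 0.0181) in co-culture, but not without old replicate 4 (-0.08), and was higher in young MSCs by 0.14. Snx27, which hands cargo to retromer, fell by 0.11 (adjusted p = 0.0396), and this call ended without any 1 of old replicates 2 to 6 and rejuvenated old replicates 5 and 6 (-0.11 to -0.07).

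The group named for its RGS domain holds Snx13, Snx14, Snx19 and Snx25, several of which are anchored in the endoplasmic reticulum. Of these 4, Snx13 and Snx19 fell in co-culture. Snx13 (gene number 217463, chromosome 12 from 35046147 to 35147480) ran from 1069.8 to 1239 in old (median 1125), 767 to 1024 in rejuvenated old (median 937) and 963 to 1066 in young (median 1021) libraries. Every old library lay above every other one, and the others overlapped. In log2 terms that is -0.29 (SE 0.06, adjusted p = 2.08e-04) for rejuvenated old over old MSCs and -0.16 (adjusted p = 0.0111) for young over old MSCs, and the latter was 0.30 with the median of chromosome 12 subtracted. Snx19 (gene number 102607, chromosome 9 from 30426988 to 30467141) had the highest level of the class, 473 per kilobase in old MSCs, and ran from 2655 to 2789.8 in old (median 2715), 2345 to 2662 in rejuvenated old (median 2517) and 1312 to 1443 in young (median 1395) libraries. Every young library lay below every other one, and the other groups overlapped. It fell by 0.12 (adjusted p = 0.00837) in co-culture and was lower in young MSCs by 0.97 (adjusted p = 1.53e-17). Snx25 (gene number 102141, chromosome 8 from 46033261 to 46152441) ran from 1119.6 to 1223 in young (median 1178), 439.8 to 562 in old (median 493) and 489.9 to 595 in rejuvenated old (median 549) libraries. Young libraries lay above all others, and old and rejuvenated old libraries overlapped. With old MSCs as the reference, the log2 fold change was 1.23 (SE 0.06, adjusted p = 1.27e-15) for young MSCs and 0.13 (adjusted p = 0.0637) for rejuvenated old MSCs. Snx14 was higher in young MSCs by 0.53 (adjusted p = 7.26e-11).

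Snx15 (gene number 69024, chromosome 19 from 6119399 to 6132415), which joins a PX domain to an MIT domain, had 868 per kilobase in old MSCs. It ran from 1314 to 1490.2 in old (median 1436), 1188 to 1469.6 in rejuvenated old (median 1246) and 923 to 965 in young (median 957) libraries. Young libraries lay below all others, and rejuvenated old replicate 5 reached into the old range. It fell by 0.16 (adjusted p = 0.00687) in co-culture and was lower in young MSCs by 0.58 (adjusted p = 3.78e-11).

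Summed over all 73 genes, the normalized count was 142476 ± 1078 (SD, n = 6) for old, 135416 ± 3103 (SD, n = 6) for rejuvenated old and 130246 ± 1136 (SD, n = 6) for young MSCs. The highest library of the other groups lay below the lowest old one. The mean change from old MSCs was -4.96% in rejuvenated old and -8.58% in young MSCs. Under the 3 other scalings the first ran from -6.00% to -4.76% and the second from -6.39% to -3.74%, again without overlap. Besides retromer and HOPS with CORVET, the summed counts of the FERM, RGS and GARP classes lay lower after co-culture without overlap. The RGS and GARP groups overlapped under at least 1 other scaling. The plot of class sums shows each class in each library.

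**Figure D4:**
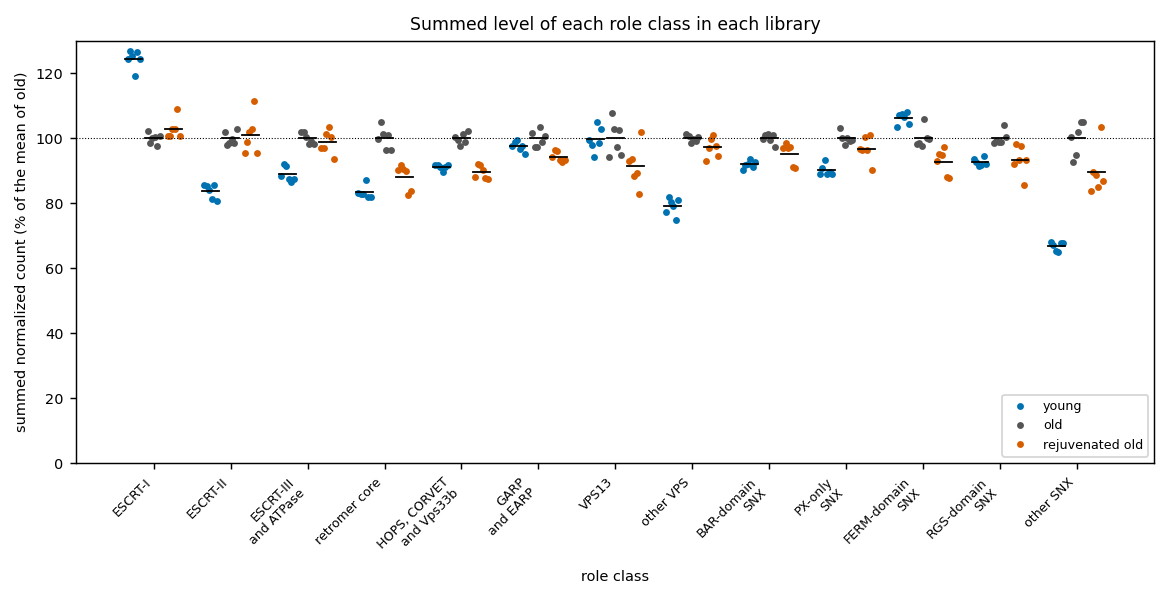
Summed normalized count of each role class in each library, as a percent of the mean of the old libraries, with classes on the horizontal axis. Points are libraries (6 per group) and lines are group means. The sums of retromer and of HOPS with CORVET are lower in young and in rejuvenated old libraries than in those of old MSCs. That of ESCRT-I is higher in young MSCs. Of the 8 genes in the class of HOPS and CORVET, 5 are higher and 3 lower in young than in old MSCs.

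The members' positions were set beside the shifts of whole chromosomes between young and old MSCs. Of the 10 members on chromosomes 1, 7, 12 and 16, the 2 on chromosome 7 were higher and the 8 on the others lower in young MSCs, each in the direction of its chromosome. Of the 63 on all other chromosomes, 28 were higher and 27 lower. With the median of each member's chromosome subtracted, 61 of the 73 (83.6%) passed the test between young and old MSCs, against 83.9% of all genes. Of these, 55 had passed it before in the same direction and 4 had not passed it before, and the other 2 had passed it in the opposite direction. The rest of the 65 that had passed it before no longer did. The values of Vps13b, Snx1 and Vps52 were then 0.0003, 0.008 and 0.03. Among others that kept their sign, Vps37a went from 0.29 to 0.14, Snx9 from 0.59 to 0.37 and Vps11 from 0.46 to 0.27. Vps26a and Vps35 moved further from 0, from 0.16 to 0.36 and from -0.26 to -0.41. The sign then turned for Chmp2a, Vps33b, Snx13 and Snx29, which had passed the test before, for Snx24 and Vps4a, which had not, and for Chmp5, which passed in neither case. In rejuvenated old against old MSCs 39 members (53.4%) changed after the same step, against 41.0% of all genes. Of these, 37 had changed before in the same direction and 2 had not passed before, while Chmp2a, Snx27 and Vps33b no longer passed. The cause of the chromosome shifts was not tested.

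**Figure D5:**
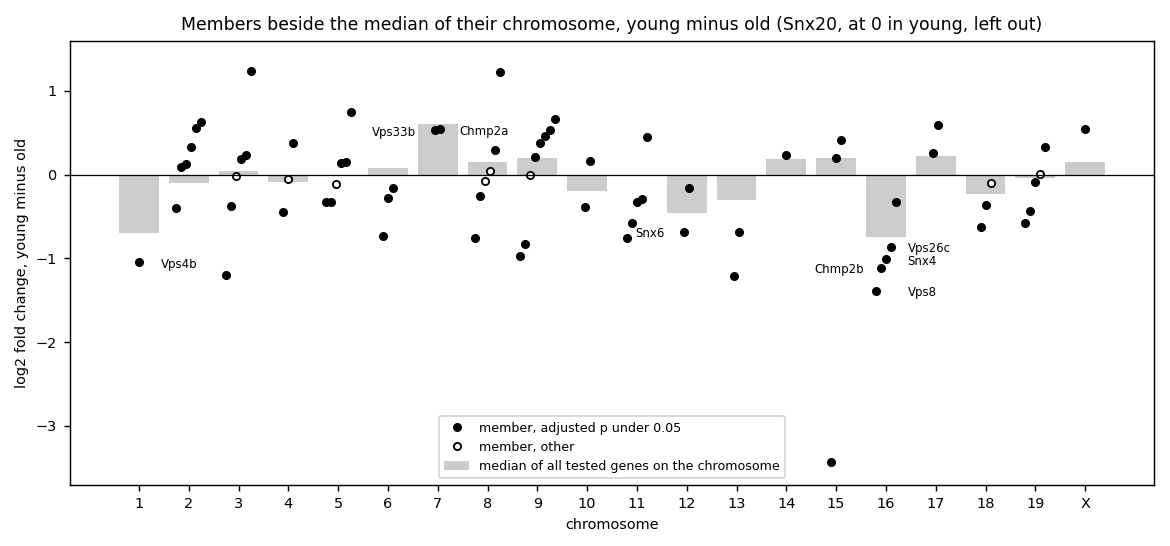
Log2 fold change of members in young against old MSCs (points, filled where the adjusted p was under 0.05) by chromosome, with the median of all tested genes on each chromosome as a bar and Snx20 left out. Vps8, Chmp2b, Snx4 and Vps26c on chromosome 16 lie below a bar that is itself at -0.75 and Snx29 above it, and Chmp2a and Vps33b on chromosome 7 lie near the top of a bar at 0.61.

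The genes that mark released vesicles were read last, since ESCRT proteins help to form them. Of 8 tested, 3 rose and 3 fell in co-culture, and 3 were higher and 4 lower in young than in old MSCs. The tetraspanin Cd9 rose by 0.33 (adjusted p = 4.11e-07), from 9813 ± 578 (SD, n = 6) to 12312 ± 567 (SD, n = 6) normalized counts, while the tetraspanin Cd63 fell by 0.18 (adjusted p = 4.65e-04). Anxa5 fell by 0.15 (adjusted p = 0.00229) and was lower in young MSCs by 0.57. Cd82 was higher in young MSCs by 0.79 and Sdcbp, which helps load vesicles, by 0.36.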

How the data were processed

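The signal values are read counts per gene, which the authors divided by 1 size factor per library (DESeq2) after aligning reads to mm10 with HISAT2 and counting with StringTie and featureCounts on Galaxy. Versions, annotation, strand and filters were not stated. Multiplying the deposited values back gave whole reads for 100% of values (tolerance 0.1, largest departure 5.55e-05), with 22936251 to 29559194 reads per library.

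Members and lists were chosen with earlier results of these data known. Genes averaging 10 or more (14353 of 27179, of which 21697 had a read) were tested with limma 3.58.1 on log2(normalized count + 1), with a trend in the prior and 3 groups in 1 fit, and p adjusted by Benjamini and Hochberg. Replicate numbers pair nothing. The rule for named genes allowed any member with its group values. Lowest, median and highest values are given for the 10 members with the largest change among those past the threshold without overlap, in each comparison with old MSCs, and for the most abundant member of each class per kilobase. Of each list, the genes named were among the 3 with the largest change past the threshold in these comparisons, and the most abundant marker of each cell type. Any other gene was named after its values were seen. Lists that were not members, and the cell type lists, were written from background knowledge, and 8 of their names matched no gene.

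On recovered reads, edgeR 4.0.16 called 40, 64 and 63 members (rejuvenated old against old, young against old, young against rejuvenated old) and DESeq2 1.42.0 called 43, 64 and 64. R 4.3.3, Python 3.11.15, pandas 2.3.3, numpy 2.4.6, scipy 1.17.1 and matplotlib 3.10.9 were used. Coordinates are RefSeq GRCm38.p6 (mm10) and exon lengths GENCODE M21.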

Additional observations from a re-analysis of the deposited data

Results flagged for a closer look

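In 14 of 266 groups of 6 libraries checked, 1 library stood far from the other 5, by a gap too large for the range of the group (Dixon's test at the 95% level). Chance alone singles out about 1 in 20 groups. The libraries are given with their value in normalized counts and the range of the other 5. Rejuvenated old replicate 1 was high in Cd34 (401.6 against 24.2 to 41.9) and in Thy1 (21.63 against 0 to 0.951), both abundant in young MSCs. Rejuvenated old replicate 5 was high in Snx15 (1469.6 against 1188 to 1272) and in the ESCRT-I sum (6390.5 against 5892 to 6034), and low in Stam2 (1432 against 1629 to 1710). Young replicate 4 was low in the sums of ESCRT-I (6979.8 against 7287 to 7438) and of HOPS and CORVET with Vps33b (14306 against 14545 to 14668), and high in that of retromer (13673 against 12884 to 13083). Young replicate 2 was low in Chmp4c (11.95 against 18.5 to 21.3) and young replicate 3 high in Pparg (391 against 295 to 327). Old replicate 6 was low in Ankrd50 (1338 against 1417 to 1453) and old replicate 2 high in Washc5 (4398 against 3997 to 4140). Old replicate 4 was high in the FERM sum (4427 against 4087 to 4181) and old replicate 5 in the RGS sum (5468 against 5174 to 5269). The causes were not tested.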

How the results depend on the processing

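Over 13 settings of pseudocount, filter, scaling, groups in the fit, prior, block, chromosome and count tools, 34 to 43 members changed in rejuvenated old against old MSCs (6 to 10 higher, 27 to 36 lower), 61 to 65 in young against old and 60 to 66 in young against rejuvenated old. Leaving out 1 library at a time gave 36 to 39, 62 to 65 and 60 to 63, and a block for the replicate number 38, 64 and 61. At an adjusted p under 0.01 the first count was 30, with 4 higher. With a log2 change of 0.5 or more also asked for, the counts were 2 (0 higher, 2 lower), 30 (11, 19) and 26 (9, 17), which are 2.74%, 41.1% and 35.6% of members against 8.63%, 56.2% and 54.9% of all genes. With the median of the chromosome subtracted, signs past the threshold before or after turned in young against old for Chmp2a (-0.0688), Snx13 (0.30), Snx24 (0.13), Snx29 (0.43), Vps33b (-0.0769) and Vps4a (-0.10), and in young against rejuvenated old for Chmp2a (-0.18), Vps26c (0.11), Vps33b (-0.22) and Vps36 (-0.10). In rejuvenated old against old MSCs no member past the threshold turned in any setting run. Without rejuvenated old replicate 5, young against rejuvenated old gave 0.08 for Snx13 and 0.06 for Snx27. The cause was not tested. Other scalings moved the median of all genes by less than 0.1. Depth limits Snx20, Snx31 and Chmp4c, with few reads. Chmp4c reached the mean asked for only through the young libraries, and Snx31 only through the old ones. The groups have 6 libraries each, the young one differs in its Y-linked reads as well as age, and no control tells co-culture from its partner's age.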
